A study of Mus musculus with 20 samples.

Results

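The comparison is of XY with XX kidneys in the control mice of a *Pkd2* deletion series. Mice were chosen by the genotype Control in the labels, which 10 of the 20 mice carry, and they were parted by the letter M or F in the label that also gives the litter, into 5 males and 5 females. Genes on chromosomes X and Y were left out, so every gene value is of an autosomal gene unless stated. The series was made to study how loss of *Pkd2*, which encodes the cation channel polycystin-2, leads to kidney cysts in adult mice of both sexes, and the mutants carry *Pkd2fl/fl*, *Pax8rtTA* and *TetOCre*. The *Pax8rtTA* transgene is active along the renal tubule, from its proximal part through the collecting duct, and its product turns on Cre when DOX is given. The controls were littermates on an inbred C57BL/6 background that also carry *Pkd2fl/fl* but lacked either *Pax8rtTA* or *TetOCre*, and the labels do not say which. Controls and mutants of both sexes got the same treatment, Doxycycline Hyclate by IP injection at 50 mg per kg once a day from P27 to P29, and all kidneys were taken at P125. A male control and a female control therefore differ in sex but share the floxed alleles and the DOX. None of the mice is untreated, so a DOX effect common to both sexes cannot be told apart from the normal kidney.

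Single mice are called MC1 to MC5 (male controls) and FC1 to FC5 (female controls), with numbers given in accession order, and values of 5 mice are always listed in that order. By label the mice belong to 3 litters. Litter A held MC1, MC2, MC3 and FC1, litter B held MC4, FC2, FC3 and FC4, and litter C held MC5 and FC5. Among these controls MC4 is thus the only male of litter B, FC1 the only female of litter A, and MC5 and FC5 the only male and female of litter C, and the fit takes litter as a covariate. Total RNA of whole kidney gave 1 library per mouse with 12726655 to 17784820 counts on genes. Between 16776 and 17392 genes had at least 1 count. The 50 genes with most counts held 16.76% to 18.5% of the counts in males and 14.86% to 16.89% in females. FC5 was the library least like the others of its sex, with a median Pearson correlation of 0.9803 to them across genes, against 0.987 to 0.9897 for the other females.

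*Xist*, which is read from the inactive X, was at 864, 787, 807.5, 747.5 and 442 CPM in the females, lowest in FC5, and at most 0.436 in the males, and *Ddx3y* of the Y chromosome was at 86.44 to 102.3 CPM in the males and listed at 0 in the females. CPM (counts per 1e6 counts) use library sizes scaled by TMM. Of the marker genes of nephron segments, 124 had enough counts to be tested and 1 had not, so glomerulus, tubule and collecting duct were all sampled. *Ren1*, which marks renin cells, was listed at 0 in all 10 controls, as were the globin genes *Hba-a1*, *Hba-a2*, *Hbb-bs* and *Hbb-bt* and the adrenal genes *Cyp11b1* and *Cyp11b2*. Reads of near-identical gene copies can be lost in counting, but which of these zeros, if any, arose so was not tested. A listed 0 alone does not show that the RNA was absent.

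The males were larger. Body weight was 24.45, 23.69, 24.58, 27.6 and 22.27 g in males and 20.8, 18.8, 19.77, 20.2 and 20.4 g in females, with no overlap. The difference of means was 4.52 g (24.5 ± 1.95 against 19.99 ± 0.764, SD, n = 5 each, two-sided exact permutation p = 0.00794). Kidney weight was 158.7, 160.5, 147.3, 176.8 and 199.5 mg in males and 134.1, 113.8, 118.5, 112.1 and 137.0 mg in females, again without overlap. Its means differed by 45.5 mg (168.6 ± 20.2 against 123.1 ± 11.6, SD, n = 5 each, exact permutation p = 0.00794). This test exchanges mice without regard to litter and gave its smallest possible p, the same after adjustment over the 2 weights. With labels exchanged only within litters, chosen after seeing the data, 32 assignments are possible, and the exact p was 0.0312 for either weight, again the smallest possible. Within litters A, B and C the males exceeded the females by 21.4, 62 and 62.5 mg.

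*Pkd2*, the floxed gene (chr5:104453982-104505819, GRCm38), was read in all 10 controls, at 271, 296, 247, 330.1 and 302 CPM in males and 187, 296, 281, 209 and 265.5 CPM in females. The groups overlapped, with FC1 and FC4 lowest (log2 fold change 0.37, standard error 0.111, edgeR adjusted p = 0.0255). DESeq2's Wald test gave an adjusted p of 0.00519 for the same difference.

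The kidney filters blood in the glomerulus, where podocytes hold the filter, and then reworks the filtrate along the tubule. The proximal tubule takes back most solutes, with convoluted S1 and S2 parts and a straight S3 part in the outer medulla, and it burns fatty acids, makes glucose and secretes drugs and other organic ions. The loop of Henle, distal convoluted tubule and collecting duct then set salt, water, potassium and acid. In rodents androgens act on the proximal tubule through the androgen receptor, and growth hormone and prolactin are further signals that differ between the sexes.

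Sex differences reached many autosomal genes, about as many higher in males as in females. Of 13632 autosomal genes tested, 2432 were called at an edgeR adjusted p under 0.01, which is 17.8%, with 1203 higher in males (8.82%) and 1229 higher in females (9.02%). Each edgeR adjusted p comes from a quasi-likelihood fit that also holds a litter term, with Benjamini-Hochberg adjustment over all genes tested, and log2 fold changes are of males over females. The count was 1192 without MC4 and 1497 without FC1. Males accounted for 49.5% of the called genes as the higher sex, but for 56.8% without FC1 and 40.2% with upper-quartile scaling, which moved the median of all genes by −0.05. Most differences were small. The median absolute log2 fold change was 0.61 over called genes and 0.22 over all genes tested, and 265 genes were higher in males and 245 higher in females by over 1 on the log2 scale. By over 3 on that scale, 44 were higher in males and 35 in females. The groups did not overlap for 2168 of the called genes, and for 23.8% of all genes tested.

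The called genes were spread over all 19 autosomes. The share called per chromosome ran from 15.3% on chromosome 5 to 21.6% on chromosome 13. Chromosome 7 was the most uneven in direction, with 66 called genes higher in males and 116 higher in females.

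Among the 10 largest rises in males, taken from called genes whose sexes did not overlap and whose mean over the 10 mice reached 1 CPM, were transporters and enzymes of the proximal tubule that were close to absent in females. *Slc7a13*, an amino acid transporter of the S3 segment (chr4:19818727-19842213), was at 1410, 1434, 1515, 1286 and 1425 CPM in males and 1.67, 0.79, 1.77, 3.32 and 2.61 CPM in females. All 5 males lay within a narrow band, and the means were 696-fold apart (log2 fold change 9.40, standard error 0.233, edgeR adjusted p = 4.2e-11). *Cyp2j13*, a cytochrome P450 of the *Cyp2j* cluster (chr4:96042660-96077566), was at 422, 478, 407, 449 and 553 CPM in males and 0.8975, 0.685, 1.08, 0.974 and 0.944 CPM in females. It was near 1 CPM in every female (log2 fold change 8.98, standard error 0.118, edgeR adjusted p = 2.3e-13). *Acsm3*, an acyl-CoA synthetase for medium-chain fatty acids (chr7:119760883-119784896), was at 951, 1060, 897, 1004 and 1348 CPM in males and 4.1, 3.85, 4.67, 2.005 and 3.99 CPM in females. MC5 was highest among the males, and the groups lay 282-fold apart in their means (log2 fold change 8.13, standard error 0.178, edgeR adjusted p = 2.1e-11). *Slco1a1*, an organic anion transporter (chr6:141907281-141946962), was at 479.6, 554, 417, 574 and 737 CPM in males and had 0, 1, 4, 1 and 0 counts in females.

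*Pzp*, a protease inhibitor of the α2-macroglobulin family (chr6:128483567-128526720), was at 103, 111, 82.9, 112 and 119.7 CPM in males and 0.449, 0.211, 0.057, 0.115 and 0 CPM in females. No female reached 1 CPM (log2 fold change 9.27, standard error 0.258, edgeR adjusted p = 1.4e-10). *Ugt2b37*, a glucuronosyltransferase (chr5:87240492-87254788), was at 124.5, 96.7, 109, 111 and 129 CPM in males and 1.41, 0.79, 0.627, 1.32 and 1.16 CPM in females, a 107-fold difference of means. *Ces1g*, a carboxylesterase (chr8:93302369-93337209), was at 135, 157, 91.55, 261 and 156 CPM in males and 1.67, 1.265, 1.31, 3.44 and 4.14 CPM in females. Its males spread widely, with MC4 highest and MC3 lowest, yet all lay above the females (log2 fold change 6.39, standard error 0.31, edgeR adjusted p = 2.4e-08).

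The other 3 of the 10 were low in males too. *Neurog2*, known as a neuronal transcription factor (chr3:127632733-127635636), was at 2.54, 2.9, 2, 5.25 and 6.81 CPM in males and had no count in any female, which makes it at least 21.4-fold higher in males against a floor of 3 counts per library. *Mpped1* (chr15:83779472-83858487) was at 6.47, 7.26, 6.59, 7.43 and 10.7 CPM in males and had 1 count among the females, all in FC4, a ratio of 640 with a 95% counting interval from 115 to 25300. *AA536875* (chr14:123168503-123176176) was at 2.62, 3.53, 4.59, 4.52 and 4.56 CPM in males against 2 counts over the females, a ratio of 165 with an interval from 45.7 to 1360. These intervals are exact Poisson intervals and cover counting error only.

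The 10 largest falls in males, which are the genes most enriched in females, held conjugation, efflux and growth factor genes. *Ugt1a2*, a glucuronosyltransferase (chr1:88200611-88220002), was at 0.291, 0.883, 0.148, 0.646 and 0.642 CPM in males and 395, 445, 394, 413 and 380.5 CPM in females. Every male lay under 1 CPM. *Abcc3*, an efflux pump for conjugated organic anions (chr11:94343295-94393017), was at 2.18, 2.59, 2.07, 4.845 and 2.5 CPM in males and 183.5, 93.2, 137, 184 and 154 CPM in females. MC4 stood above the other males and FC2 below the other females, and the groups remained far apart (log2 fold change −5.77, standard error 0.264, edgeR adjusted p = 1.4e-08). *Slc7a12*, an amino acid transporter (chr3:14480697-14505819), was at 18.5, 11.9, 13.85, 12.2 and 5.59 CPM in males and 507, 395, 441, 404 and 225.5 CPM in females. The litter C mice MC5 and FC5 were lowest in their groups (log2 fold change −5.15, standard error 0.12, edgeR adjusted p = 3.2e-11). *Slc17a2*, a member of the SLC17 family of phosphate and organic anion transporters (chr13:23806941-23825191), was at 0.0727, 0.189, 0.593, 0.1615 and 0.193 CPM in males and 30.2, 16.5, 20.1, 24.8 and 17.7 CPM in females. The lowest female was FC2, far above the highest male, MC3 (log2 fold change −6.70, standard error 0.274, edgeR adjusted p = 5.5e-09).

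*Igf2*, an insulin-like growth factor that is imprinted and mainly fetal (chr7:142650768-142666816), was at 3.34, 1.77, 2.74, 2.665 and 2.31 CPM in males and 133, 107, 83.7, 157 and 158 CPM in females. Males were low but not at 0 (log2 fold change −5.72, standard error 0.222, edgeR adjusted p = 3.4e-09). Its antisense gene *Igf2os* (chr7:142659680-142670356) overlaps it and was at 0.0727, 0, 0.222, 0 and 0 CPM in males and 3.01, 2.11, 2.34, 4.07 and 3.63 CPM in females. Whether counting used strand is not given in the sources used here, so reads of *Igf2* and *Igf2os* cannot be told apart and the fall of *Igf2os* (log2 fold change −5.66, edgeR adjusted p = 2.0e-05) is uncertain.

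*Tmprss6*, a serine protease known for its part in iron balance (chr15:78439667-78468648), was at 0.291, 0.0631, 0.0741, 0.1615 and 0 CPM in males and 8.975, 9.01, 6.725, 6.19 and 6.97 CPM in females. Its females were within 6.19 to 9.01 CPM (log2 fold change −6.10, standard error 0.366, edgeR adjusted p = 1.5e-07). *Myh1*, a myosin heavy chain of skeletal muscle (chr11:67200102-67224577), had 3 counts over the males, all in MC5, and 7.24, 5.585, 3.13, 7.85 and 6.825 CPM in females, a ratio of 145 with a counting interval from 49.7 to 704. *Atp13a4*, a cation-transporting ATPase (chr16:29389103-29544864), had 2 counts over the males and 4.74, 4.85, 3.59, 4.3 and 5.08 CPM in females, a ratio of 160 with an interval from 44.4 to 1320. The noncoding gene *9230105E05Rik* (chr10:120389523-120392793) had 1 count in males, in MC3, and 1.67, 1.74, 1.48, 3.61 and 1.89 CPM in females, a ratio of 148 with an interval from 26.5 to 5830.

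**Figure D1:**
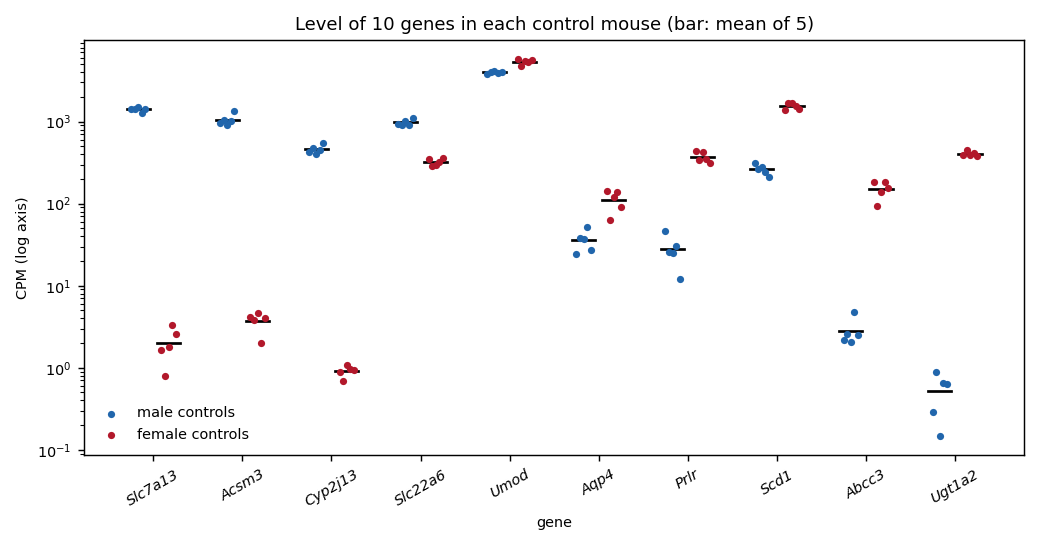
Level of 10 genes in each of the 10 control mice, in CPM on a log axis, with points for mice (blue males, red females) and bars for the mean of 5. The sexes do not overlap for any of the 10, from *Umod*, with males at 3851 to 4086 CPM and females at 4809 to 5757, to *Ugt1a2*, with every male under 1 CPM. The 10 were picked for display, and *Slc7a13*, *Acsm3*, *Cyp2j13*, *Abcc3* and *Ugt1a2* were named by a rule that requires no overlap. The sexes do not overlap for 23.8% of all genes tested.

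Along the nephron, markers of the tubule beyond the proximal part were lower in males as a group, and those of the proximal tubule went both ways. Of the 124 segment markers tested, 11 were called higher in males (8.87%, against 8.82% of all genes tested) and 47 higher in females (37.9%, against 9.02%), with a median log2 fold change of −0.41 against −0.01 over all genes tested. In the 3 proximal lists together, 11 of 44 were higher in males (25%) and 9 in females (20.5%, median 0.07). In the 5 lists of the tubule beyond it, 0 of 68 were called higher in males by edgeR or by DESeq2, and 29 were called higher in females (42.6%, median −0.46). Higher in males at an unadjusted p under 0.05 was 1 of the 68, and 65 had a negative log2 fold change. The count of 29 was 12 without FC1, 14 without MC4 and 19 with all 20 mice in 1 fit, and that of 47 was 28 without FC1 and 26 without MC4. The count of 11 was 7 with all 20 mice in 1 fit. CPM are relative to the rest of each library, so a list is also lower where RNA of other cells takes a larger share. In whole-kidney RNA, such a shift, fewer cells of a type and less RNA per cell cannot be told apart. The shares of cell types in these kidneys were not measured. Male kidneys were heavier, and RNA amounts per kidney were not measured either.

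**Figure D2:**
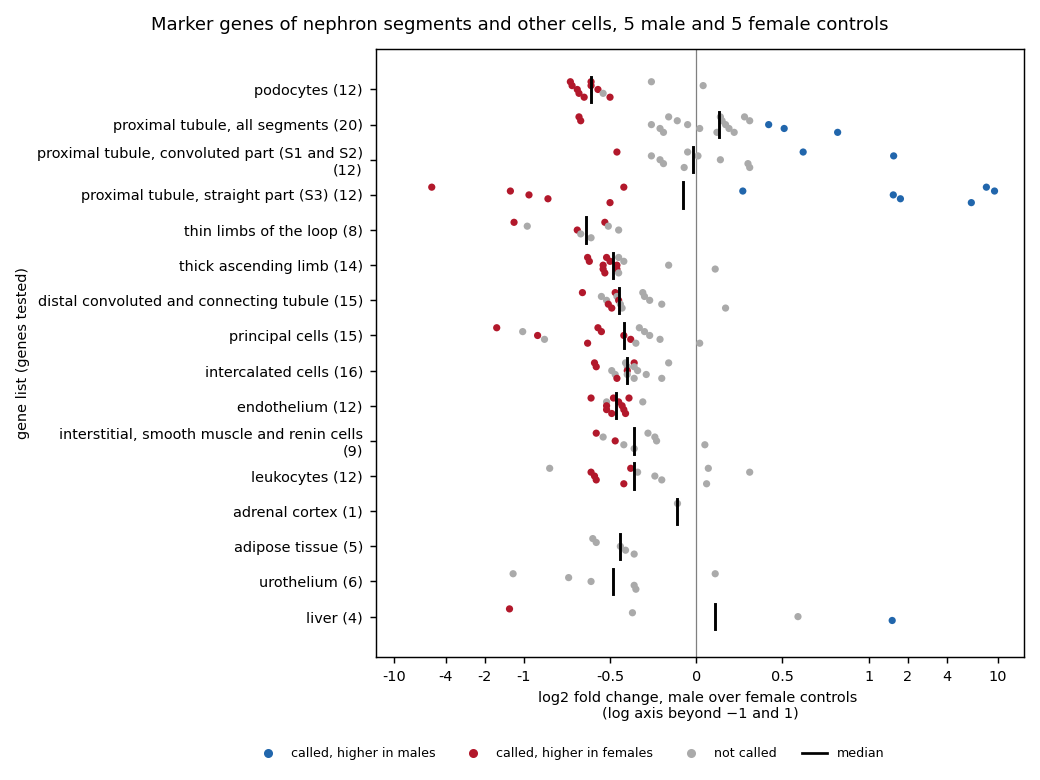
Log2 fold change of male over female controls (horizontal axis, logarithmic beyond −1 and 1) for each tested member of the nephron segment and other cell lists (vertical axis, number tested in brackets), with points coloured by call and a black line at the list's median. The medians of the lists from thin limbs to intercalated cells lie left of 0, from −0.64 to −0.40, and the 12 S3 genes spread from −5.15 to 9.40.

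All 12 markers of the straight S3 part were called, 6 in each direction (median −0.07), where 17.8% of all genes were. Like the other lists, this one was chosen with earlier results of these data known, which can favour such a share. Beside *Slc7a13* and *Acsm3*, *Cyp7b1*, a hydroxylase of oxysterols and steroids (chr3:18071944-18243890), was higher in males, at 257, 284, 320, 264 and 359 CPM in males and 4.17, 3.69, 3.13, 4.87 and 3.485 CPM in females. Its sexes were 76.7-fold apart (log2 fold change 6.22, standard error 0.138, edgeR adjusted p = 2.1e-11). Beside *Slc7a12*, 5 S3 markers were higher in females. *Slc22a19*, an organic anion transporter (chr19:7673075-7711310), was at 118, 142, 163, 122.5 and 155 CPM in males and 356.5, 236, 293, 337 and 363 CPM in females. It differed less than *Slc7a12* but without overlap (log2 fold change −1.27, edgeR adjusted p = 7.5e-06). *Slc22a13*, a transporter of urate and other organic anions (chr9:119192966-119209105), was at 84.5 ± 10.75 CPM in males against 152 ± 22.8 in females (SD, n = 5 each, log2 fold change −0.97, edgeR adjusted p = 1.8e-06). *Napsa*, the aspartic protease napsin A and the list's member with most counts (chr7:44572445-44586846), was at 1857, 2011, 2105, 1673 and 2046 CPM in males and 3372, 2661, 2782, 3224 and 4425 CPM in females. FC5 was highest and no male reached the lowest female (log2 fold change −0.86, edgeR adjusted p = 3.6e-05). Summed over the list, CPM were 1.4 times as high in males as in females, although its members divided evenly.

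Markers of the whole proximal tubule gave 3 of 20 higher in males (15%, against 8.82% of all genes tested) and 2 higher in females (10%, against 9.02%), with a median of 0.13. The 3 were 1 without FC1, without MC4 or with all 20 mice in 1 fit. *Ggt1*, the brush border enzyme γ-glutamyltransferase (chr10:75561076-75586193), was at 1215, 1212, 1338, 1165 and 1390 CPM in males and 706, 652, 606, 677 and 815 CPM in females, without overlap (log2 fold change 0.82, edgeR adjusted p = 4.5e-06). *Slc27a2*, a fatty acid carrier and very-long-chain acyl-CoA synthetase (chr2:126553024-126588243), was at 4857 ± 481 CPM in males against 3174 ± 389 in females (SD, n = 5 each, log2 fold change 0.51, edgeR adjusted p = 0.00121). Its adjusted p was 0.0158 without FC1, 0.0123 without MC4 and 0.0569 with all 20 mice in 1 fit. Higher in females were *Slc7a8*, a neutral amino acid exchanger (chr14:54722215-54781886), at 145 ± 8.9 CPM in males against 234 ± 19.6 in females (log2 fold change −0.68, edgeR adjusted p = 7.8e-05), and *Mme*, the brush border peptidase neprilysin (chr3:63295211-63383713), at 217 ± 15.65 CPM in males against 342 ± 37.4 in females (log2 fold change −0.67, edgeR adjusted p = 5.5e-05).

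In the convoluted S1 and S2 part, 2 of 12 were higher in males (16.7%, against 8.82% of all genes tested) and 1, *Gatm*, higher in females (8.33%, against 9.02%), with a median of −0.02. The call of *Gatm* was lost without any 1 of FC2, FC4, FC5, MC2, MC3, MC4 and MC5, with DESeq2 size factors and with all 20 mice in 1 fit. *Slc22a6*, the organic anion transporter OAT1 (chr19:8617996-8628299), was at 948, 921, 1031, 917 and 1095 CPM in males and 347.5, 285, 297, 320.1 and 363 CPM in females. All males were above 900 CPM and all females under 400 (log2 fold change 1.56, standard error 0.072, edgeR adjusted p = 1.6e-08). *Slc34a1*, the sodium-phosphate cotransporter NaPi-IIa (chr13:55399622-55414695), was at 5239, 5094, 5200, 5478 and 5541 CPM in males and 3314, 3750, 3126, 3373 and 3904 CPM in females. It too had no overlap (log2 fold change 0.62, edgeR adjusted p = 1.6e-04). With all 20 mice in 1 fit its adjusted p was 0.0266, which left 1 call in males.

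In the loop, 3 of 8 thin limb markers and 9 of 14 thick ascending limb markers were called, all higher in females (37.5% and 64.3%, against 9.02% of all genes tested), with medians of −0.64 and −0.48. The 9 were 5 without FC1, 4 without MC4 and 5 with all 20 mice in 1 fit. The 3, among them *Slc4a11* and *Fst*, were 1 in that single fit. *Slc4a11*, a borate-transporter homologue of the thin limb (chr2:130684107-130697519), was at 9.01, 10.35, 13, 11 and 9.89 CPM in males and 26.15, 16.1, 25.9, 24.6 and 24.2 CPM in females. FC2 lay below the other females and above all males (log2 fold change −1.19, edgeR adjusted p = 1.6e-04). *Slc14a2*, the urea transporter of the inner medulla, was at 28.7, 47.6, 78.1, 80.5 and 93.8 CPM in males and 103, 110.2, 111, 142 and 96.9 CPM in females. Its groups did not overlap, yet the males spread widely and the test was not passed (log2 fold change −0.61, edgeR adjusted p = 0.0704).

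*Umod*, which encodes uromodulin, the main protein of normal urine (chr7:119462708-119479262), was at 3851, 4064, 4086, 3965 and 4079 CPM in males and 5757, 4809, 5445, 5352 and 5602 CPM in females. The males were within 3851 to 4086 CPM and the females at 4809 or more (log2 fold change −0.46, standard error 0.079, edgeR adjusted p = 1.0e-03), and without FC1 the adjusted p was 0.0152. *Egf*, made in the same segment and in the distal convoluted tubule (chr3:129677574-129755322), was at 1874, 1836, 1484, 1506 and 1727 CPM in males and 2455, 2736, 2444, 2453 and 2592 CPM in females. It was lower in every male (log2 fold change −0.62, edgeR adjusted p = 4.9e-04), with an adjusted p of 0.0115 without MC4 and 0.0458 with all 20 mice in 1 fit. Summed over the list, CPM of thick limb markers were 8771, 8906, 8452, 8418 and 9079 CPM in males and 12450, 11840, 11870, 11510 and 12330 CPM in females, a male to female ratio of 0.727.

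Distal convoluted and connecting tubule markers gave 0 of 15 higher in males and 5 higher in females (33.3%, against 9.02% of all genes tested, median −0.45). The 5, *Trpm6*, *Kcnj10*, *Slc12a3*, *Stk39* and *Wnk4*, became 1 without FC1 or MC4, 2 without MC2, 3 without FC2, without MC1 or with all 20 mice in 1 fit, 8 with no litter term and 9 with DESeq2. *Trpm6*, a magnesium channel (chr19:18730177-18892521), was at 32, 25, 23.55, 31.1 and 29.4 CPM in males and 50.3, 51.4, 55.5, 49.6 and 32 CPM in females. FC5 was close to the highest male, and the call (log2 fold change −0.66, edgeR adjusted p = 0.00247) was lost without FC1 (adjusted p = 0.0459) and without MC4 (adjusted p = 0.0295).

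In the collecting duct, 7 of 15 principal cell markers and 5 of 16 intercalated cell markers were called, all higher in females (46.7% and 31.2%, against 9.02% of all genes tested), with medians of −0.42 and −0.40. The 7 were 2 without FC1 and 3 without FC5 or MC5. The 5, *Rhcg*, *Rhbg*, *Oxgr1*, *Atp6v1b1* and *Atp6v0d2*, were 2 without FC1 or MC4, 3 with all 20 mice in 1 fit, 9 with no litter term or upper-quartile factors and 10 with DESeq2. *Aqp4*, a basolateral water channel, was at 24.6, 38.05, 37.4, 51.8 and 27.1 CPM in males and 142, 63.4, 121, 139 and 90.04 CPM in females. FC2 was the lowest female and MC4 the highest male, and they did not overlap (log2 fold change −1.62, standard error 0.236, edgeR adjusted p = 3.2e-04). *Npnt*, the matrix protein nephronectin (chr3:132881745-132950291), was at 171, 169, 219, 229.9 and 212 CPM in males and 409, 367, 409, 466 and 347 CPM in females, with every male under every female (log2 fold change −0.92, edgeR adjusted p = 5.8e-05). *Rhcg*, an ammonia channel (chr7:79593363-79617657), was at 110.2 ± 12.1 CPM in males against 165 ± 12 in females (SD, n = 5 each, log2 fold change −0.59, edgeR adjusted p = 7.5e-04).

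In the glomerulus, 9 of 12 podocyte markers were called, all higher in females (75%, against 9.02% of all genes tested, median −0.61). *Podxl*, the surface sialoprotein podocalyxin and the member with most counts (chr6:31519493-31563937), was at 221, 214, 198, 210.4 and 146 CPM in males and 314, 341, 312, 299 and 263 CPM in females. MC5 was lowest of all (log2 fold change −0.65, edgeR adjusted p = 5.6e-05). *Synpo*, which encodes the actin-bound synaptopodin, was at 54.7, 54.45, 55.6, 60.2 and 37.8 CPM in males and 81.5, 93.8, 90.7, 93.4 and 73.5 CPM in females, and again MC5 was lowest (log2 fold change −0.69, edgeR adjusted p = 3.6e-05). The summed CPM of the list were 612, 623, 587, 613 and 431.5 CPM in males and 807, 884, 807.5, 812 and 679 CPM in females, a ratio of 0.719. MC5 has the heaviest kidney of the 10 (199.5 mg), while MC4, with the next heaviest (176.8 mg), was not low. A link of the list with kidney weight was not tested.

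Called markers of endothelial, interstitial and leukocyte cells, outside the nephron, were also all higher in females. Endothelial markers gave 10 of 12 higher in females (83.3%, against 9.02% of all genes tested, median −0.47), which was 1 without FC1, 5 without MC4 and 6 with all 20 mice in 1 fit. *Plvap*, a protein of capillary fenestrae (chr8:71497753-71511806) with most counts in the list, was at 93, 97.3, 102, 104 and 89.4 CPM in males and 147, 118, 153, 154.5 and 164 CPM in females, without overlap (log2 fold change −0.61, edgeR adjusted p = 6.6e-04). The list's summed CPM were 535, 529, 513, 571 and 483 CPM in males and 766, 667, 776, 751 and 716 CPM in females. Of 9 tested markers of interstitial, smooth muscle and renin cells, 2, *Pdgfra* and *Pdgfrb*, were higher in females (22.2%, against 9.02% of all genes tested, median −0.36), which was 1 without FC1 and 0 with all 20 mice in 1 fit. Their summed CPM, led by *Col1a2*, were 362.5, 321, 356, 352 and 283 CPM in males and 389.9, 380.1, 547, 494 and 393 CPM in females. Of 12 leukocyte markers 5 were higher in females (41.7%, against 9.02% of all genes tested, median −0.36), the complement genes *C1qa*, *C1qb* and *C1qc* and the antigen presentation genes *Cd74* and *H2-Aa*. This was 2 without FC1, 3 without FC5, MC4 or MC5, and 0 with all 20 mice in 1 fit. Their summed CPM, led by *Cd74*, were 319, 336, 339, 342 and 338 CPM in males and 438, 406, 464, 411 and 427 CPM in females.

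Tissue that can come along with a kidney was also read. Adipose markers summed to 19.4, 13.4, 0.444, 54.5 and 4.69 CPM in males and 5.13, 0.474, 130, 5.21 and 116 CPM in females, so FC3, FC5 and MC4 were high, both sexes held low mice, and 0 of 5 tested markers were called by edgeR (0 at an unadjusted p under 0.05) or by DESeq2. *Cfd*, the fat cell protease adipsin (chr10:79890853-79892655), led the list with 10.5, 7.38, 0.37, 38.7 and 2.31 CPM in males and 3.14, 0.211, 91.1, 3.78 and 76.9 CPM in females (log2 fold change −0.58, edgeR adjusted p = 0.77), and without FC3, FC5 or MC5 its log2 fold change was 1.18, 0.52 and 0.51. Urothelial markers summed to 5.02, 5.99, 11.4, 27.2 and 9.63 CPM in males and 18.8, 6.85, 39.7, 21.8 and 17.1 CPM in females, with overlap and 0 of 6 called by edgeR (0 at an unadjusted p under 0.05) or by DESeq2 (median −0.48). Adrenal markers summed to 5.57 to 7.05 CPM in males and 5.3 to 8.48 in females, led by *Star*, with 0 of 1 tested called by edgeR (0 at an unadjusted p under 0.05) or by DESeq2. Erythroid markers on autosomes were all listed at 0. The part of adipose tissue, urothelium, vessels or leukocytes in the differences of other genes was not tested.

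Of 4 tested genes best known from liver, 1 was higher in males and 1 in females (25% and 25%, against 8.82% and 9.02% of all genes tested, median 0.11). *Ttr*, the thyroxine carrier transthyretin, was at 87.7, 126, 149, 123 and 107 CPM in males and 30.45, 56.8, 29.8, 53 and 51.3 CPM in females (log2 fold change 1.52, edgeR adjusted p = 3.4e-04). *Alb*, which encodes albumin (chr5:90460870-90476602), was at 8.14, 9.46, 7.48, 6.78 and 6.81 CPM in males and 16.35, 21.8, 18.7, 14 and 21.3 CPM in females (log2 fold change −1.29, edgeR adjusted p = 1.2e-04), a call lost with all 20 mice in 1 fit (adjusted p = 0.0761). Of 9 tested markers of tubule injury, 1 was higher in males and 3, *Spp1*, *Vcam1* and *Clu*, higher in females (11.1% and 33.3%, against 8.82% and 9.02% of all genes tested, median −0.38), and with all 20 mice in 1 fit none was called in either direction. *Spp1*, the phosphoprotein osteopontin of the loop and collecting duct (chr5:104435111-104441053), was at 959.7, 802, 1005, 934.5 and 827 CPM in males and 1819, 2016, 1942, 1924 and 2194 CPM in females. No male came near the lowest female, FC1 (log2 fold change −1.12, edgeR adjusted p = 4.4e-06), and the adjusted p with all 20 mice in 1 fit was 0.015. *Havcr1*, the injury molecule KIM-1 (chr11:46739822-46779578), was low in both sexes, at 2.62, 2.52, 4.07, 0.8075 and 2.055 CPM in males and 0.641, 0.369, 0.627, 0.63 and 0.508 CPM in females. Its call (log2 fold change 1.61, edgeR adjusted p = 0.00599) was lost without FC1, FC2, FC5, MC1 or MC5, with adjusted p of 0.0848, 0.0109, 0.0296, 0.0108 and 0.0303, and with all 20 mice in 1 fit (0.28).

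Metabolic and transport genes were called in both directions. Of 432 genes tested in 14 lists, 103 were higher in males (23.8%, against 8.82% of all genes tested) and 76 higher in females (17.6%, against 9.02%), with a median log2 fold change of 0.06. The lists differed in how far they leaned. The medians of single lists ran from −0.20 for glycolysis and gluconeogenesis to 1.23 for medium-chain acyl-CoA synthetases, against −0.01 over all genes tested. With upper-quartile scaling the medians of cytochromes P450 and of amino acid metabolism became −0.01 each and that of the respiratory chain 0.00.

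**Figure D3:**
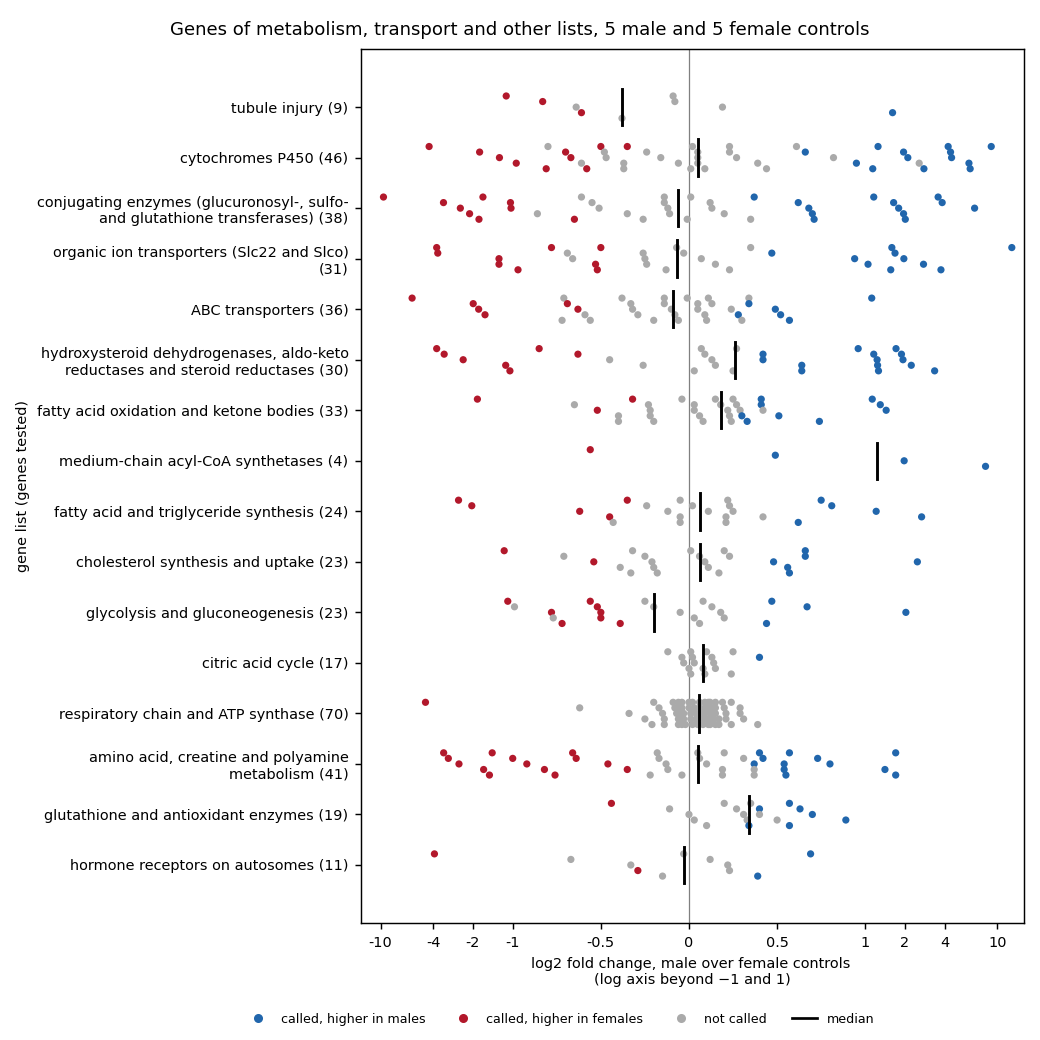
Log2 fold change of male over female controls (horizontal axis, logarithmic beyond −1 and 1) for each tested member of the injury, metabolic, transport and hormone receptor lists (vertical axis, number tested in brackets), with points coloured by call and a black line at the list's median. Detoxification and steroid lists hold called genes far to both sides, while of the 70 respiratory chain genes *Cox8b* is at −4.57 and the others lie between −0.62 and 0.39.

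Cytochromes P450 oxidise fatty acids, steroids and drugs. Of 99 such genes 46 had enough counts, and 13 were higher in males and 10 in females (28.3% and 21.7%, against 8.82% and 9.02% of all genes tested, median 0.05), while the summed CPM were 2.76 times as high in males. *Cyp4b1*, with most counts of the list (chr4:115624698-115647721), was at 4013, 4256, 3878, 3869 and 4423 CPM in males and 177, 185, 88.6, 192 and 234 CPM in females. FC3 was lowest, and the sexes were 23.3-fold apart (log2 fold change 4.50, standard error 0.205, edgeR adjusted p = 1.4e-08). On the same stretch of chromosome 4 lie *Cyp4a12a* (chr4:115299046-115332815) and *Cyp4a14* (chr4:115486200-115496158), fatty acid ω-hydroxylases that went opposite ways. *Cyp4a12a* was at 125.2, 141, 162, 113.5 and 174 CPM in males and 1.86, 1.84, 2.28, 1.09 and 2.61 CPM in females (log2 fold change 6.09, edgeR adjusted p = 3.8e-11). *Cyp4a14* was at 21.9, 24.5, 58.8, 42.4 and 14.1 CPM in males and 614, 516, 514, 659 and 665 CPM in females (log2 fold change −4.29, edgeR adjusted p = 1.8e-06), and no male came near the females. Reads of the close *Cyp4a* copies can be divided among them or lost, so the value of a single copy is uncertain.

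Conjugating enzymes attach glucuronic acid, sulfate or glutathione so that a compound can be excreted. Of 38 tested, 13 were higher in males and 9 in females (34.2% and 23.7%, against 8.82% and 9.02% of all genes tested, median −0.06). *Ugt2b38* (chr5:87409939-87424203), close to *Ugt2b37* on chromosome 5, was at 1189, 1163, 1313, 1125 and 1193 CPM in males and 88.2, 70.5, 78.4, 91.8 and 82.3 CPM in females. Both neighbours were higher in males (log2 fold change 3.82, standard error 0.0916, edgeR adjusted p = 3.5e-11 for *Ugt2b38*). *Ugt1a1*, the bilirubin-conjugating enzyme (chr1:88211959-88220002), was at 0.5815, 0.505, 0.444, 0.404 and 0.193 CPM in males and 3.4, 4.48, 4.33, 5.73 and 5.155 CPM in females. It was higher in females like *Ugt1a2* (log2 fold change −3.34, edgeR adjusted p = 6.6e-06). *Ugt1a10* was also called higher in females (log2 fold change −2.49). The family was not uniform, and of 3 others, chosen after their values were seen, *Ugt1a6a* (−1.04) was called higher in females and *Ugt1a6b* (2.01) and *Ugt1a7c* (1.16) higher in males. The *Ugt1a* genes share their last exons, and *Ugt1a1* and *Ugt1a2* end at the same base, 88220002, so reads from those exons do not tell the genes apart and all these values are uncertain.

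Organic ion transporters of the Slc22 and Slco families carry drugs, urate, steroid conjugates and prostaglandins. Of 31 tested, 10 were higher in males and 9 in females (32.3% and 29%, against 8.82% and 9.02% of all genes tested, median −0.07). *Slc22a12*, the urate exchanger URAT1 (chr19:6535854-6543070), was at 2060, 1962, 2431, 2071 and 2131 CPM in males and 1070, 893, 931, 911 and 1134 CPM in females. It was 2.16-fold higher in males (log2 fold change 1.05, standard error 0.0859, edgeR adjusted p = 2.9e-06). *Slc22a30* (chr19:8335371-8405111) was at 167, 186, 217.5, 177 and 192 CPM in males and 15, 7.43, 14, 14.8 and 15.5 CPM in females, with FC2 lowest (log2 fold change 3.74, edgeR adjusted p = 1.3e-08). Its neighbour *Slc22a29* (chr19:8160168-8253375) was at 5.89, 5.55, 5.63, 5.33 and 4.62 CPM in males and 74.9, 68.8, 58.1, 76 and 71.5 CPM in females (log2 fold change −3.76, edgeR adjusted p = 1.4e-10). These near neighbours on chromosome 19 thus had opposite directions, and as close copies their single values are uncertain.

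Of 36 ABC transporters, 6 were higher in males and 6 in females (16.7% and 16.7%, against 8.82% and 9.02% of all genes tested, median −0.09). The 6 higher in males were 2 without MC4 and 3 without FC1, FC4, FC5, MC1, MC2 or MC5, with upper-quartile factors, or with all 20 mice in 1 fit. *Abcc2*, the apical efflux pump MRP2 (chr19:43782308-43838332), was at 401, 391, 315, 415 and 411 CPM in males and 207, 212, 192, 163 and 140.4 CPM in females (log2 fold change 1.12, edgeR adjusted p = 3.9e-05). The pumps higher in females, beside *Abcc3*, included *Abcc4*, or MRP4 (chr14:118482692-118707856), at 42.9, 48.6, 48.4, 44.4 and 28.1 CPM in males and 158, 176, 155, 118 and 110.2 CPM in females (log2 fold change −1.81, edgeR adjusted p = 2.2e-07). *Abcb1b*, a P-glycoprotein gene (chr5:8798147-8866314), was at 10.8, 11.4, 9.41, 11.4 and 6.93 CPM in males and 40.1, 41.6, 36.4, 33.4 and 40.2 CPM in females (log2 fold change −1.99, edgeR adjusted p = 4.3e-07). In all 3 the sexes did not overlap, and MC5 was the lowest male for the latter pair.

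Hydroxysteroid dehydrogenases, aldo-keto reductases and steroid reductases interconvert active and inactive steroids. Of 30 tested, 14 were higher in males, or 9 without MC4, and 7 higher in females (46.7% and 23.3%, against 8.82% and 9.02% of all genes tested, median 0.26). *Hsd17b11*, a lipid droplet enzyme (chr5:103989765-104021796), was at 723, 772, 825, 818 and 1176 CPM in males and 176, 164, 179.7, 207.5 and 213 CPM in females. MC5 was well above the other males (log2 fold change 2.23, standard error 0.0933, edgeR adjusted p = 6.8e-09). *Akr1c18*, which inactivates progesterone (chr13:4132615-4150646), was at 11.7, 18, 20.5, 15.2 and 26.1 CPM in males and 314, 96.7, 154, 304 and 236 CPM in females. Its females varied widely, with FC2 lowest, and all were above the males (log2 fold change −3.76, edgeR adjusted p = 3.6e-06). *Akr1c20* (chr13:4486856-4523354) also on chromosome 13 was at 0.3635, 0.694, 0.296, 0.08075 and 0.321 CPM in males and 3.14, 3.95, 3.7, 4.24 and 3.12 CPM in females (log2 fold change −3.30, edgeR adjusted p = 3.0e-05). The *Akr1c* genes are close copies too.

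Fatty acid oxidation and ketone body genes gave 9 of 33 higher in males and 3, among them *Hadha* and *Hadhb*, higher in females (27.3% and 9.09%, against 8.82% and 9.02% of all genes tested, median 0.18). The 9 were 4 without FC1 or MC4 and 5 with all 20 mice in 1 fit, and the 3 were 1 without FC4, FC5, MC4 or MC5. *Crot*, which hands peroxisomal acyl groups to carnitine (chr5:8966033-8997146), was at 662, 685, 723, 623 and 797 CPM in males and 307, 264.5, 288.5, 262 and 253 CPM in females (log2 fold change 1.30, edgeR adjusted p = 5.8e-07). *Acat1*, a mitochondrial thiolase (chr9:53580522-53610350), was at 1285 ± 84.6 CPM in males against 579 ± 77.5 in females (SD, n = 5 each, log2 fold change 1.13, edgeR adjusted p = 2.7e-07). *Hadha*, of the mitochondrial trifunctional protein for long chains (chr5:30119423-30154980), was the other way, at 262, 246, 246, 225 and 246 CPM in males and 349, 306, 328, 328 and 373 CPM in females (log2 fold change −0.52, edgeR adjusted p = 8.3e-05). *Oxct1*, the ketone-using transferase with most counts of the list, was at 1995 ± 182 CPM in males against 1865 ± 124.9 in females and was not called (log2 fold change 0.03, −0.05 without FC1, edgeR adjusted p = 0.84).

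All 4 tested medium-chain acyl-CoA synthetases were called, 3 higher in males and 1 in females (75% and 25%, against 8.82% and 9.02% of all genes tested, median 1.23). *Acsm2*, which also joins glycine conjugation of benzoate (chr7:119554340-119600694), was at 6856, 6731, 6916, 6690 and 7432 CPM in males and 1785, 1884, 1540, 1722 and 1836 CPM in females. The sexes were 3.95-fold apart (log2 fold change 1.97, standard error 0.0843, edgeR adjusted p = 8.2e-09). *Acsm1*, beside it on chromosome 7 (chr7:119617757-119662515), was at 274, 276, 253, 277 and 299 CPM in males and 403, 386, 387.5, 404.5 and 454 CPM in females, higher in females (log2 fold change −0.56, edgeR adjusted p = 4.5e-05), with an adjusted p of 0.0196 with all 20 mice in 1 fit.

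Fatty acid and triglyceride synthesis gave 5 of 24 higher in males and 5 in females (20.8% and 20.8%, against 8.82% and 9.02% of all genes tested, median 0.06). The male 5 were 2 with all 20 mice in 1 fit, and the female 5 were 3 without FC1 and 2 without MC4. *Mogat1*, a monoacylglycerol acyltransferase (chr1:78511060-78606964), was at 144, 151, 195, 153 and 186 CPM in males and 23.9, 20.9, 21.1, 26.7 and 34.7 CPM in females (log2 fold change 2.67, edgeR adjusted p = 1.1e-08). *Me1*, the malic enzyme that supplies NADPH (chr9:86581363-86695914), was at 664 ± 41.8 CPM in males against 274 ± 20.1 in females (SD, n = 5 each, log2 fold change 1.21, edgeR adjusted p = 8.5e-08). In the other direction, *Scd1*, the desaturase that makes monounsaturated fatty acids (chr19:44394450-44407709), was at 316, 266, 281, 246 and 212 CPM in males and 1393, 1692, 1704, 1531 and 1423 CPM in females. The highest male, MC1, was far under the lowest female, FC1 (log2 fold change −2.57, standard error 0.105, edgeR adjusted p = 5.5e-09). *Elovl6*, which elongates palmitate (chr3:129532386-129638495), was at 28.1, 29.15, 27.3, 29.6 and 23.6 CPM in males and 117, 110, 108, 106 and 115 CPM in females, with a tight spread in both sexes (log2 fold change −2.04, edgeR adjusted p = 3.0e-09).

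Cholesterol synthesis and uptake gave 6 of 23 higher in males and 2, among them *Cyp51*, in females (26.1% and 8.7%, against 8.82% and 9.02% of all genes tested, median 0.06), and the 2 were 1 without FC1 and 4 with no litter term. *Idi1*, isopentenyl-diphosphate isomerase (chr13:8885606-8892396), was at 78.5, 72.2, 63.55, 82 and 93.55 CPM in males and 15.8, 14.9, 13.7, 13.6 and 13 CPM in females. It was 5.49-fold higher in males (log2 fold change 2.48, standard error 0.111, edgeR adjusted p = 1.1e-08). *Hmgcs1*, which makes HMG-CoA (chr13:119690351-119708260), was at 777, 775, 776, 759 and 875 CPM in males and 545, 508, 468.5, 480.3 and 462 CPM in females (log2 fold change 0.66, edgeR adjusted p = 5.8e-05).

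Glycolysis and gluconeogenesis gave 4 of 23 higher in males and 8 in females (17.4% and 34.8%, against 8.82% and 9.02% of all genes tested, median −0.20), and the 4, *Ldhd*, *Pcx*, *Ldha* and *Tpi1*, were 2 without FC1 or MC4. *Ldhd*, the D-lactate dehydrogenase (chr8:111625611-111630336), was at 1139, 1198, 1202, 1158 and 1373 CPM in males and 319, 266, 252.4, 283 and 316 CPM in females (log2 fold change 2.03, standard error 0.0745, edgeR adjusted p = 2.2e-09). *Pcx*, pyruvate carboxylase of gluconeogenesis (chr19:4510472-4621752), was at 586, 601.5, 566, 575 and 598 CPM in males and 376, 343, 339, 333 and 405 CPM in females (log2 fold change 0.67, edgeR adjusted p = 1.2e-05). *Pfkp*, a phosphofructokinase of glycolysis (chr13:6579874-6649060), was at 48.6, 52.8, 57, 50.8 and 60.2 CPM in males and 92.95, 92.2, 93.7, 94.85 and 88.8 CPM in females and thus higher in every female (log2 fold change −0.78, edgeR adjusted p = 1.6e-05).

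Few genes of the citric acid cycle and of the respiratory chain were called. In the citric acid cycle 1 of 17 was called (5.88%, against 17.8% of all genes, median 0.08), *Suclg2*, the GTP-forming succinyl-CoA ligase subunit (chr6:95473009-95718858), at 566, 533, 528, 523 and 543 CPM in males and 402, 445, 381, 372 and 419 CPM in females (log2 fold change 0.40, edgeR adjusted p = 0.00156). Its adjusted p was 0.0143 without FC1, 0.0191 without MC4 and 0.0437 with all 20 mice in 1 fit, and 2 genes were called with DESeq2 or with no litter term. *Sdha*, of succinate dehydrogenase, was at 1112 ± 30.8 CPM in males against 1092 ± 89.1 in females (log2 fold change 0.01, edgeR adjusted p = 0.91), and its log2 fold change was between −0.04 and 0.05 in the alternatives. Of 70 respiratory chain and ATP synthase genes 1 was called, which is 1.43% against 17.8% of all genes (median 0.06). It was *Cox8b*, a subunit form of heart and muscle (chr7:140898942-140900446), at 0, 0.0631, 0, 0.242 and 0 CPM in males and 1.15, 1, 1.88, 1.26 and 3.27 CPM in females (log2 fold change −4.57, edgeR adjusted p = 2.5e-04). The highest mice for *Cox8b*, FC5 and FC3 among females and MC4 among males, also had the highest summed adipose markers (116, 130 and 54.5 CPM). FC1, FC2 and FC4, with low adipose markers, were above every male too, and a part of adipose tissue was not tested. The list had 2 called genes without FC3 or with no litter term, and 0 where 10 counts were required in every mouse. *Atp5b*, the catalytic β-subunit of ATP synthase, was at 3656 ± 177 CPM in males against 3471 ± 431 in females (log2 fold change 0.05, edgeR adjusted p = 0.671).

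Amino acid, creatine and polyamine metabolism gave 12 of 41 higher in males and 14 higher in females (29.3% and 34.1%, against 8.82% and 9.02% of all genes tested, median 0.05), and without MC4 6 and 9. *Odc1*, ornithine decarboxylase, which starts polyamine synthesis (chr12:17544808-17551502), was at 1124, 1328, 1281, 1197 and 1817 CPM in males and 386, 408, 381.5, 433 and 478 CPM in females. MC5 was highest and the sexes did not overlap (log2 fold change 1.70, standard error 0.0887, edgeR adjusted p = 4.4e-08). *Cbs*, which condenses homocysteine and serine (chr17:31612623-31637233), was at 273, 269.9, 273.5, 223 and 279 CPM in males and 92, 109, 79.3, 84 and 109 CPM in females (log2 fold change 1.41, edgeR adjusted p = 7.2e-07). Homocysteine has a further route through *Bhmt*, a betaine-dependent methyltransferase (chr13:93616891-93637758), which was at 6.98, 4.16, 4.07, 3.88 and 4.37 CPM in males and 42.6, 34.2, 21.8, 46.3 and 68 CPM in females and so went the other way (log2 fold change −3.33, edgeR adjusted p = 1.6e-06). *Kynu*, kynureninase of tryptophan breakdown (chr2:43555258-43683048), was at 10.03, 7.7, 8.74, 11.4 and 5.84 CPM in males and 53.3, 54.4, 43.4, 57.6 and 47.8 CPM in females, higher in every female (log2 fold change −2.55, edgeR adjusted p = 8.0e-08).

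Glutathione and antioxidant enzymes gave 7 of 19 higher in males and 1, *Gpx6*, higher in females (36.8% and 5.26%, against 8.82% and 9.02% of all genes tested, median 0.34). The 7 were 3 without MC4 and 11 with DESeq2, and *Gpx6* was not called without FC1, FC5, MC1, MC2, MC4 or MC5, with no litter term or with all 20 mice in 1 fit. *Hmox1*, heme oxygenase 1 (chr8:75093618-75100593), was at 45.4, 46.2, 53.8, 36.7 and 36.8 CPM in males and 20.8, 22.1, 25.1, 17.9 and 23.8 CPM in females (log2 fold change 0.89, edgeR adjusted p = 3.1e-04). *Prdx1*, a peroxiredoxin (chr4:116685599-116700000), was at 892 ± 94.1 CPM in males against 558 ± 73.1 in females (log2 fold change 0.63, edgeR adjusted p = 6.7e-04). *Gpx3*, the plasma glutathione peroxidase that the proximal tubule secretes, was at 17140 ± 1792 CPM in males against 17700 ± 1552 in females, with overlap and no call (log2 fold change −0.11, edgeR adjusted p = 0.473).

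Hormone receptors were listed too, among them those of steroids, prolactin, growth hormone, insulin, IGF-1 and thyroid hormone. Of 11 tested, *Esr1* and *Igf1r* (IGF-1) were called higher in males and *Prlr* and *Thra* (thyroid hormone) higher in females (18.2% and 18.2%, against 8.82% and 9.02% of all genes tested, median −0.03). *Prlr*, the prolactin receptor (chr15:10177238-10349190), was at 46.4, 25.8, 24.9, 30.3 and 12.1 CPM in males and 437, 343, 421, 349 and 310 CPM in females. The highest male, MC1, was far under the lowest female, FC5 (log2 fold change −3.91, standard error 0.213, edgeR adjusted p = 6.1e-08). *Esr1*, estrogen receptor α (chr10:4611989-5005633), was at 18.2, 20.25, 22.1, 17.7 and 18.9 CPM in males and 11.5, 13.9, 15.3, 10.25 and 10.02 CPM in females. Its call (log2 fold change 0.69, edgeR adjusted p = 0.00291) was lost without FC1, FC5 or MC5, with adjusted p of 0.0269, 0.0158 and 0.0158. *Ghr*, the growth hormone receptor (chr15:3317755-3583352), was at 1158, 1139, 1113, 986 and 1080 CPM in males and 1047, 817, 861, 947 and 797.5 CPM in females, with overlap and no call (log2 fold change 0.22, edgeR adjusted p = 0.0557). The male-higher receptors were 0 without FC1, FC5 or MC5 and 1 without FC3, MC1 or MC4 or with upper-quartile factors. The female-higher receptors were 1 without any 1 mouse other than MC3, with all 20 mice in 1 fit or with no filter on low counts.

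The mutants of the series give the same contrast in 10 other mice, with *Pkd2* deleted in tubules and cystic kidneys. There 755 of 13917 autosomal genes were called (5.43%), 501 higher in males (3.6%) and 254 higher in females (1.83%). The count was 237 without FM1, 464 without FM2, 1286 without FM4, 247 without FM5, 339 without MM3, 375 without MM4, 250 without MM5 and 1851 with DESeq2, where FM are female and MM male mutants. Values of the controls are therefore set beside those of the mutants by size, not by call. The list medians in controls and mutants were −0.61 and −0.59 for podocytes, −0.64 and −0.89 for thin limbs, and −0.48 and −0.53 for the thick limb. For principal cells they were −0.42 and −0.54, and for endothelium −0.47 and −0.17. *Slc7a13* had log2 fold changes of 9.40 in controls and 9.44 in mutants, and *Scd1* −2.57 and −1.95. *Prlr* had −3.91 and −3.20, and *Abcb1b* −1.99 and −0.94.

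Whether the sex difference of a named gene was itself different between controls and mutants was tested with the sex by genotype term over all 20 mice. With edgeR 0 of 153 named genes passed, 26 had an unadjusted p under 0.05 (17%, against 596 or 4.17% of 14307 autosomal genes), and DESeq2's Wald test called 6, against 18 over all autosomal genes. All 6 had the smaller sex difference in mutants. The controls enter this term, and genes were named largely by the size of their difference in controls. Such naming favours both this direction and the larger shares among named genes, so neither is a result about them. They were *Cyp2j13*, *Ugt2b37*, *Abcc3*, *Slc7a12*, *Cyp4b1* and *Abcb1b*, and without FM4, an alternative chosen after seeing the data, edgeR called 2. The edgeR adjusted p of the term was lowest for *Ugt2b37* (0.0593), whose log2 fold change was 6.72 in controls and 1.84 in mutants. Its female mutants varied widely, at 20.4 ± 20.84 CPM against 66.48 ± 17.52 in male mutants (SD, n = 5 each), while female controls were at 1.061 ± 0.339. The adjusted p of the term was 0.247 for *Cyp2j13* and *Abcb1b*, 0.267 for *Slc7a12*, and 0.346 for *Cyp4b1* and *Abcc3*. A miss of the threshold does not show that the sexes differed alike in controls and mutants.

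Promoters are shown for the genes among the 20 largest differences that hold either of 2 short motifs given below, so that the letters near their starts can be read. RefSeq promoters (250 bases before to 50 after a start, GRCm38.p6) were found for 14 of the 20. Motifs searched on both strands were TTCNNNGAA, a STAT element, AGAACA, part of the androgen and glucocorticoid receptor element, and GGTCA, part of nuclear receptor elements. Of 31396 autosomal promoters, 8.35% hold TTCNNNGAA, 19% AGAACA and 40.7% GGTCA. Of the 14 genes, 1, 3 and 7 hold them in at least 1 of their promoters. Some of these genes have several promoters, so counts of genes and shares of promoters are unlike measures. Promoters were found for 80.8% of the genes higher in males, 75.6% of those higher in females and 79.2% of all tested. Motif shares were not tested between gene sets. The lines give the promoters with either of the first 2 motifs, each 5′ to 3′ on the gene's strand with matches to any of the 3 in capitals, and a match is a description of letters only. *Pzp* is from the minus strand of chr6:128526671-128526970, *Ugt1a2* from the plus strand of chr1:88200361-88200660, *Slc17a2* from the plus strand of chr13:23806743-23807042 and *Igf2*, at the only 1 of its starts with such a match, from the minus strand of chr7:142666767-142667066.
Pzp: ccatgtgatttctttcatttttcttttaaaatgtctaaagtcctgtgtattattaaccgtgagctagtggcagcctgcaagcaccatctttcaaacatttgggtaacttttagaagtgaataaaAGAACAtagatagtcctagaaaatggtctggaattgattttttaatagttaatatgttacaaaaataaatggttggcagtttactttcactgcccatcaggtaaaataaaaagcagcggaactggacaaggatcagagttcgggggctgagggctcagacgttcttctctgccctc
Ugt1a2: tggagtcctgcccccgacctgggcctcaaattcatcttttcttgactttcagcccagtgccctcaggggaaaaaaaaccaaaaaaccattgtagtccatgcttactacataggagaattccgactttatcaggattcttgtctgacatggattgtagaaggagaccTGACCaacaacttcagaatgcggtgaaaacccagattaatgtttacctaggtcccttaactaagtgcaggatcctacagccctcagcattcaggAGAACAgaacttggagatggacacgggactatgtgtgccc
Slc17a2: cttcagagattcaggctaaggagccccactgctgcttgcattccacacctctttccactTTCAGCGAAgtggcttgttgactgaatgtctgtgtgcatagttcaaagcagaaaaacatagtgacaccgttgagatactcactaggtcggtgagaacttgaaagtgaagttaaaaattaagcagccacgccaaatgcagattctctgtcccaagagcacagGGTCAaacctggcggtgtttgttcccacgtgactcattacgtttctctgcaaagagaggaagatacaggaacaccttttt
Igf2: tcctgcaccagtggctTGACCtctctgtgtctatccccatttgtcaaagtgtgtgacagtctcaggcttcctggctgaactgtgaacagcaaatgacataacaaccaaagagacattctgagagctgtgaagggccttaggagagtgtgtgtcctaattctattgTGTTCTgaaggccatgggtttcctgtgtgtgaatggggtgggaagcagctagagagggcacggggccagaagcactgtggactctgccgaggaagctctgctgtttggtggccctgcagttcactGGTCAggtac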

How the data were processed

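Bulk RNA-seq of total RNA from whole kidney of 20 mice was used, 1 library per mouse. The authors trimmed reads with fastp 0.23.2, aligned them to mm10 with STAR 2.7.10b and deposited raw counts per gene symbol. Their labels also list R 4.3.0 and DESeq2, and the sources used here do not give the counting tool, the gene annotation or whether counting used strand. Gene symbols were placed on GRCm38, and of 24411 symbols 86 had no match and 3 matched several chromosomes, and these were left out, as were chromosomes X and Y. The 10 controls had 12726655 to 17784820 counts, and log2 fold changes had standard errors with a median of 0.111.

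Counts were fitted with edgeR 4.0.16 in R 4.3.3 (TMM, filterByExpr, quasi-likelihood test, prior count of 2 for CPM on the log scale), with litter and sex as terms. Genes were called at an adjusted p under 0.01 over all genes tested, X and Y included. Weights were tested by exact permutation without regard to litter and, as an alternative chosen after seeing the data, within litters. Alternatives were DESeq2 1.42.0 (Wald test), DESeq2 and upper-quartile factors, no filter on low counts, a filter at 10 counts in all 10 controls (which leaves 17 of the genes with values untested), a fit lacking litter, a single fit of all 20 mice, and each mouse left out. limma 3.58.1, Python 3.11.15, pandas 2.3.3, scipy 1.17.1 and matplotlib 3.10.9 were also used. The fits were tested on simulated data, and the outcome is not reported here.

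Named genes were the 10 largest rises and 10 largest falls by log2 fold change among called autosomal genes with a mean of at least 1 CPM over the 10 controls and no overlap of the sexes, from each list up to 3 called members per direction by size of the change and the member with most counts, and *Esr1*, *Prlr*, *Ghr* and *Pkd2*. The rule named 153 genes, of which 138 were called, 89 of them in every alternative that tested them. Values are given in the text for 90, of which 82 were called, 71 of them in every alternative that tested them, and results of some members are not reported here. Log2 fold changes alone are given for *Ugt1a10*, which the rule named, and for 3 other *Ugt1a* genes chosen after their values were seen. All 138 had the same sign in all 3 litters, which choosing them by a call in the same mice favours. Members and lists were chosen with earlier results of these data known. Counting intervals of genes with 1 to 3 counts in a sex cover counting error only, and whether PCR copies were removed is not given, so true intervals can be wider.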

Additional observations from a re-analysis of the deposited data

Results flagged for a closer look

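In groups of 5 mice, values that stand apart by Dixon's 95% limit are listed, and chance gives about 1 in 20 groups. Of the 262 groups examined, which cover the genes with values, the sex check, weights, list sums and library measures, 31 held such a value. Where 4 mice have no count, any count in the other stands apart by construction, as for *Myh1* in MC5, *9230105E05Rik* in MC3 and *Mpped1* in FC4. None was tested for a cause.

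MC5 stood apart for *Mpped1* (10.66 CPM), *Myh1* (0.1926), *Synpo* (37.82), *Slc7a8* (128.9), *Abcc4* (28.06), *Hsd17b11* (1176), *Hmgcs1* (874.6) and *Ldhd* (1373). Its summed CPM also stood apart for podocytes (431.5), medium-chain acyl-CoA synthetases (9232) and cholesterol synthesis and uptake (2576). MC4 stood apart for *Abcc3* (4.845), *Cfd* (38.68), *Cox8b* (0.2423), *Cbs* (222.8) and summed urothelial markers (27.21). MC3 did so for *Slc17a2* (0.5926), *9230105E05Rik* (0.07407), *Abcc2* (314.8) and its median correlation to the other males (0.9876). MC1 did so for *Bhmt* (6.978) and summed leukocyte markers (318.9).

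Among the females, FC5 stood apart for *Xist* (441.8 CPM), *Trpm6* (32.02), *Acsm1* (453.6) and its median correlation to the other females (0.9803). FC4 did so for *Mpped1* (0.05728, a single count) and *9230105E05Rik* (3.608), FC3 for *Slco1a1* (0.228), and FC2 for *Slc4a11* (16.07) and *Slc22a30* (7.429).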

How the results depend on the processing

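The count of 2432 called genes was within 1.5 times of itself in all alternatives but those without MC4 or FC1, and ran from 1192 to 2575 with 1 mouse left out. The share of called genes higher in males, 49.5%, was 53 with the DESeq2 Wald test, 46.6 with all 20 mice in 1 fit and 40.2 with upper-quartile factors, and 49.2 to 56.8 with 1 mouse left out. With all 20 mice in 1 fit, the male-higher calls were 7 over all segment lists and 7 over the proximal lists, and the female-higher calls beyond the proximal tubule were 19. With 1 mouse left out, female-higher calls ran from 26 to 49 over all segment lists and from 12 to 32 beyond the proximal tubule. In metabolic lists they ran from 54 to 76, and male-higher calls from 69 to 103. Among mutants the count of 755 was 1851 with the DESeq2 Wald test and 237 to 1286 with 1 mouse left out. For the sex by genotype term DESeq2 called 6 of the named genes, and edgeR 2 without female mutant 4, an alternative chosen after seeing the data. The weight differences ran from 3.75 to 5.09 g and from 37.7 to 50.8 mg with 1 mouse left out, and with labels exchanged only within litters, chosen after seeing the data, the exact p was 0.0312 for each.

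Of 1513 log2 fold changes of the 90 genes in alternatives, 1478 kept direction and side of the threshold, 24 (in 11 genes) were no longer called, 1 was newly called and 10 (in 4 genes not called) changed sign. *Cfd* was 1.18 without FC3, 0.52 without FC5 and 0.51 without MC5, and ran from −1.82 to 1.18 with 1 mouse left out. *Oxct1* was −0.03 with upper-quartile factors and −0.05 to 0.06 with 1 mouse left out. *Sdha* was −0.03 with all 20 mice in 1 fit, −0.04 with upper-quartile factors and −0.01 to 0.05 with 1 mouse left out, and *Atp5b* was −0.00 with upper-quartile factors. For all of these the cause was not tested. Of 1088 list counts in alternatives, 972 were within 1.5 times.

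No paired analysis was possible because the labels pair single controls of the 2 sexes in litter C only, and litter was a term of the fit instead. Each litter holds few controls, with MC4, FC1, MC5 and FC5 alone for their sex in theirs, and litter cannot be told apart from other features of those mice. Genes with few counts in both sexes were not tested, and with 5 mice per sex small differences can be missed. Whole-kidney RNA does not give values per cell.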
